A study of Ictalurus furcatus with 60 samples.

Results

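Across 60 sperm libraries of 30 male blue catfish (Ictalurus furcatus), a set of 200 genes took between 0.254% and 7.60% of all counts of a library. These genes stood high where the counts were gathered on fewer genes and stood far less above the median gene, or below it, where the counts were spread evenly. They are 200 of the 33677 genes counted. They were chosen by their measured CPM in the 30 fresh libraries, that is, the count of a gene per 1000000 counted reads. A fresh library was called concentrated where its median gene had under 5 CPM (11 libraries) and even where its median gene had over 12 CPM (11 libraries), and 8 libraries lay between. Genes with a mean of at least 20 CPM in fresh sperm, without the 100 most abundant, gave 11157 candidates. The 200 with the highest log2 ratio of mean CPM, concentrated over even, with 1 added to each mean, make up the set. The classes come from the libraries themselves and are not groups of the study, so the fresh values below are a description with no test.

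Mature sperm carry little RNA. Transcription is largely shut down while the nucleus is compacted, and the RNA that remains is mostly left over from sperm formation. Transcripts of a sperm library thus report mainly on earlier stages and on what each sperm sample retained. In catfish farming, blue catfish serve as the male parent of a hybrid with the channel catfish. The study looked in cryopreserved sperm for transcripts that go with hatch success.

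The sperm of each male had been split into a part put straight into a deep freezer, called fresh, and a part that was cryopreserved. This gave 1 library per male and treatment, 30 fresh and 30 cryopreserved, in which the male number pairs both libraries. Strain, age and hatch rate are not among the labels used here. The labels name polyA RNA, whereas the library kit they name is for total RNA depleted of ribosomal RNA, so the RNA fraction is uncertain. The identifiers carry no gene names, and 0 of the 200 members (0 of 33677 genes) matched RefSeq's genes for the Billie_1.0 assembly. No member could therefore be given a symbol, a role or a position, and the tissue could not be checked against sperm markers. Members are called by their rank in the ratio that chose them, and 2 of them also by their identifier.

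Total counts ranged from 929243 to 62118941 per library. In fresh sperm they were 1717039 to 22472870 in concentrated libraries (median 11932100) and 5166699 to 21488877 in even libraries (median 15047900). The fresh libraries between had 1503064 to 24396207. In cryopreserved sperm, with the same limits on the median gene, 12 concentrated libraries had 929243 to 17624438 counts with a median of 2680690, and 13 even ones had 5371541 to 62118941 with a median of 13478700. Concentration and low depth thus moved together in cryopreserved libraries. In fresh sperm, too, the lowest totals were in concentrated libraries and in those between, not in even ones. No member was at 0 in any library, and the lowest count was 10, so that detection did not limit the set. Of the 11157 candidates, 10332 were likewise above 0 in all 60 libraries, so this is not particular to the set. The 95% Wilson intervals of the members' share of counts reached at most 0.0437 percentage points to either side, for counting error only. In bulk sperm, fewer cells with a transcript and less RNA per cell cannot be told apart.

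The libraries of males 1 to 4 stood apart. The fresh libraries of males 1, 2 and 3 held 0.294%, 0.548% and 0.553% of their counts in the set. Their cryopreserved libraries held 6.47%, 6.27% and 7.12%. In male 4 the order was turned, with 6.44% in the fresh and 0.273% in the cryopreserved library. Male 28 resembled male 4. Whether the treatment labels of these males are right was not tested, and the comparisons between both libraries of a male are given with and without them where they move.

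Members were mostly abundant transcripts of the concentrated fresh libraries, outside the 100 genes with the highest mean over all 30 fresh libraries. Some members exceeded some of those 100 in the concentrated libraries, where the lowest of the 100 had a mean of 381 CPM. The class mean of a member ran from 42.7 to 951 CPM in concentrated libraries, with a median of 275, and from 3.49 to 109 CPM in even libraries, with a median of 30.4. The log2 ratio that chose them had a median of 3.15 and a range from 2.95 to 4.41. It was 2.95 both in the gene ranked 200, the last inside, and in the gene ranked 201, the first outside. Among the other 10957 candidates the ratio had a median of -0.52. The 100 most abundant genes, which the rule set aside, had a median of 2.83, and 38 of them had a ratio at or above that of the last member. Fresh means ran from 24.4 to 532 CPM over all 30 libraries, with 68 members under 100 CPM and 43 at 300 CPM or more.

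Every fresh library with a concentrated profile held more of its counts in the set than any even one, which the rule made likely. The share was 5.87% to 7.38% in the 11 concentrated libraries, with a median of 6.51%, and 0.258% to 1.88% in the 11 even libraries, with a median of 0.548%. The 8 libraries between held 2.38% to 5.97%. Of the 200 members, 192 did not overlap between the concentrated and the even fresh libraries, beside 24.9% of all candidates. The rule used this contrast, so nothing is read from that count. No single male made the set as a whole, but single members may rest on 1 library. Without the fresh library of male 6, 183 of the 200 members were chosen again, the lowest number for any concentrated library. Without that of male 16 it was 187. The library with the highest level of a member held a median of 7.93% and at most 23.5% of that member's CPM summed over the 30 fresh libraries, and the highest levels were spread over 14 males, with 42 members in male 22, 41 in male 6 and 34 in male 16.

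**Figure D1:**
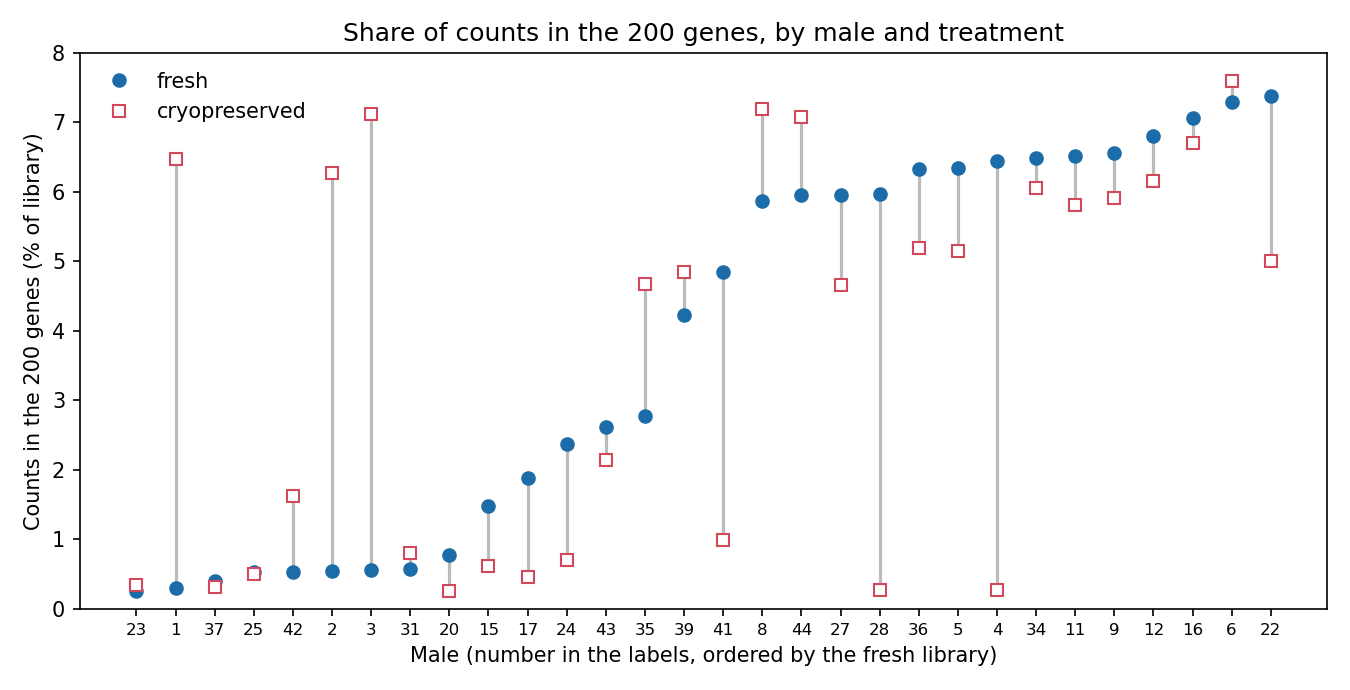
Percent of the counts of each library in the 200 genes, for the fresh (filled circles) and the cryopreserved library (open squares) of each of the 30 males, ordered by the fresh value, with a line joining both libraries of a male. Most males have both libraries at a similar height, while males 1, 2 and 3 (high after cryopreservation) and males 4, 28 and 41 (high in fresh sperm) have them far apart.

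The cryopreserved libraries, which had no part in choosing the set, showed the same ordering. When they were classed by their own median gene, the members took 4.68% to 7.60% of the counts in the 12 concentrated libraries (median 6.11%), 4.65% to 6.70% in the 5 between, and 0.254% to 2.14% in the 13 even libraries (median 0.493%). The concentrated and the even libraries did not overlap. The class mean of a member had a median of 249.6 CPM in concentrated and 26.6 CPM in even libraries. The log2 ratio between these classes had a median of 3.06 in members and a range from 2.45 to 3.82, so that each of the 200 was at least 2 on that scale. Among the other candidates 1014 of 10957 reached 2, and their median was -0.62. Of the 100 most abundant genes 82 reached 2, and their median was 2.87. Since the CPM of a library sum to a fixed total and the classes were set by the libraries measured, this too is a description with no test. The median ratio of the members was 2.96 without males 1 to 4. When each cryopreserved library took the class of the fresh library of its male instead, the median ratio was 1.27, and 3.27 without males 1 to 4.

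The same genes came out, in large part, when the rule was run on the cryopreserved table alone. Of the 200 genes it then chose, 137 were members, which is 68.5% of each list. By the cryopreserved ratio, 196 members ranked within the first 500 of the 11157 candidates, and the lowest member ranked 643. Among cryopreserved libraries, 159 of 200 members did not overlap between concentrated and even libraries, beside 18.3% of all candidates. The same held for 84 of the 100 most abundant genes, so this is not particular to the set. Across the 11157 candidates the fresh and the cryopreserved ratio had a Pearson r of 0.99, and across the 200 members, whose fresh ratios span a narrow range, it was 0.55. Genes are not independent replicates, and the libraries of both treatments come from the same males.

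**Figure D2:**
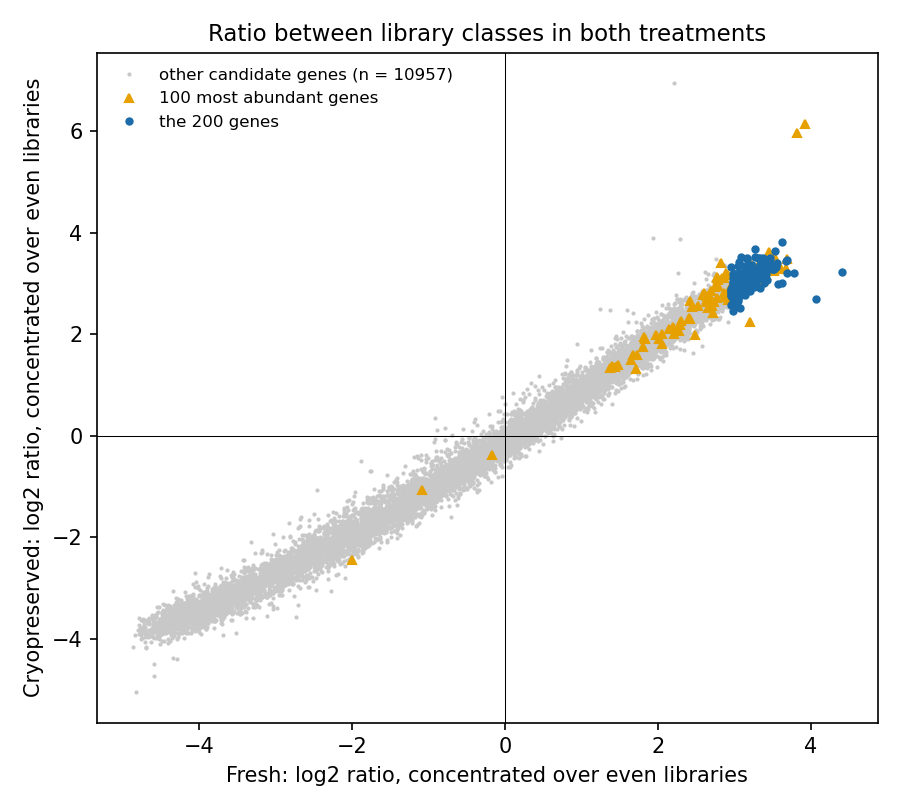
Log2 ratio of mean CPM, concentrated over even libraries, in fresh (horizontal) and cryopreserved sperm (vertical), for the 200 genes (circles), the 100 most abundant genes (triangles) and the other candidates (grey dots). The 200 genes lie at 2.95 or more on the horizontal axis, where the rule put them, and at 2.45 or more on the vertical axis.

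At the even end the members stood lower among the genes of a library, which the rule and the classes made likely. The median gene set the classes and the fresh levels chose the members, so these values are a description with no test. The 100 most abundant genes also held less there. They took 11.6% to 18.8% of the counts in concentrated and 1.24% to 5.24% in even fresh libraries. In each concentrated library of both treatments all 200 members were above the median gene. The median member stood at 61.2 to 128 times the median gene in fresh and 40.5 to 148 times in cryopreserved concentrated libraries. In shallow ones the median gene lay near the floor, so these ratios are coarse. The cryopreserved library of male 12, at 148 times, had a median gene of 1.71 CPM, where 3 counts make 1.28 CPM. In even libraries the median member stood at 0.630 to 6.10 times in fresh and 0.608 to 7.04 times in cryopreserved sperm. The number of members above the median gene ran from 67 to 194 in fresh (median 136) and from 65 to 199 in cryopreserved even libraries (median 127). In ranks, a median of 724 genes lay above the median member in fresh concentrated libraries and 12880 in fresh even libraries. After cryopreservation these medians were 782.5 and 13415 genes.

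The order of the members among themselves was much the same in both kinds of library. Across the 200 members, log2 class means of concentrated and even libraries had a Pearson r of 0.98 in fresh and 0.97 in cryopreserved sperm, and concentrated fresh and concentrated cryopreserved libraries had 0.98. The SD over members of the log2 class mean was 1.12 in both classes of fresh libraries, and 1.11 in concentrated and 1.09 in even cryopreserved ones. The rule kept genes within a narrow range of fresh ratios (2.95 to 4.41). A high r and like SDs between the fresh classes therefore follow from the rule and are no finding about these genes. The cryopreserved ratios of the members were in a narrow range too (2.45 to 3.82). In cryopreserved sperm the members also went up and down together over the males. Their pairwise r of log2(CPM + 1) over 30 males had a median of 0.97 over 19900 pairs, with the lowest pair at 0.56, beside a median of 0.14 for pairs of other candidates and 0.96 for pairs of the 100 most abundant genes. All these genes share libraries, depth and a fixed total, so the values describe the set and carry no test.

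Males were then compared on the cryopreserved level alone, against the profile of the fresh library of the same male. For each gene, edgeR's quasi-likelihood test over 30 cryopreserved libraries gave the slope of its level on the log2 median CPM of the fresh library, a term measured in another library than the levels tested. The slope was negative in 200 of 200 members, beside 37.3% of all 32732 genes tested. It was also negative in 59.3% of other candidates and in 99.0% of the 100 most abundant genes. The sign is thus not particular to the set. Within the cryopreserved libraries, members were fitted higher in males with a lower fresh median than in males with a higher one. This compares males, not treatments. The median slope was -0.60, a 1.51-fold higher level for each halving of the fresh median, and the range was -1.01 to -0.39. All genes tested had a median slope of 0.19 in this fit, and the 100 most abundant genes had -0.61. The median standard error of a member's slope was 0.32, and 5 members passed an adjusted p of 0.05 (Benjamini-Hochberg over all genes), all 5 with a negative slope, which is 2.5% of the set beside 9.24% of all genes. In the other direction 0 members were called, beside 21.7% of all genes. At an unadjusted p under 0.05 there were 58 members with a negative slope (29.0%), beside 19.0% of all genes. This share was 38.3% in other candidates and 48.0% in the 100 most abundant genes, both above that of the members. By adjusted p in this fit, then, the share of members called was below that of all genes, although every member had the same sign. With the other tools and scalings given below, that share was above that of all genes. The members went up and down together over these libraries (median pairwise r of 0.97), so 200 equal signs are not 200 independent results.

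The count of calls rested on males 1 to 4. Without them the slope had a median of -1.50. By edgeR 200 of 200 members were then called, beside 29.0% of all genes and 98.0% of the 100 most abundant genes. With log2 total counts of the library as a further term and without these males, 200 were called as well, beside 26.4% of all genes. With that term in all 30 males the median slope was -0.49 and 0 members were called by edgeR, beside 0% of all genes, with 2 members (1.0%) at a negative slope and an unadjusted p under 0.05, beside 4.31% of all genes. These males were left out after their values had been seen, because their libraries differ between treatments, and leaving out such males favours a relation between both libraries. Male 28, with 5.97% in the fresh and 0.270% in the cryopreserved library, was kept. Leaving out male 4 alone gave 34 members called, beside 16.4% of all genes, and leaving out males 35 and 39 gave 23, beside 15.3%.

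The tool and the scaling moved the count of calls too, but not the sign. DESeq2 called 155 members, beside 17.4% of all genes, and limma voom 199, beside 21.9%. With DESeq2-type size factors in edgeR 95 were called, beside 15.5%, and with library totals alone 85, beside 9.33%. Without a filter on low counts edgeR called 4, beside 8.39%. With the 11 males of concentrated against the 11 of even fresh libraries, in place of the continuous term, it called 1, beside 0.986%. In each of these fits the slope or difference of all 200 members had the same sign, as did 97.0% to 99.0% of the 100 most abundant genes. These signs are not independent of each other. The median slope of all genes, though, moved from 0.19 to 0.40 with size factors and to 0.57 with library totals.

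Single males lay across the classes. Of the 11 males with a concentrated fresh library, 7 had a concentrated cryopreserved library, 3 one between and 1 an even one. Their cryopreserved libraries held 0.273% to 7.60% of the counts in the set, with a median of 5.91%. Of the 11 males with an even fresh library, 8 had an even cryopreserved library, 1 one between and 2 a concentrated one, with 0.254% to 7.12% and a median of 0.614%. These groups overlap. Without males 1 to 4 they did not, with 5.00% to 7.60% after cryopreservation in 10 males with a concentrated fresh library and 0.254% to 1.61% in 8 males with an even one, but these males were left out for their values. Across the 30 males, the fresh and cryopreserved log2(CPM + 1) of a member had a Pearson r with a median of 0.41 and a range from 0.27 to 0.61. The median was 0.51 over other candidates and 0.48 over all genes. Without males 1 to 4 these medians were 0.75 in members, 0.73 in other candidates and 0.68 in all genes, so the order of members and other genes turned with these males.

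Between the treatments themselves, no member was called. In edgeR's test of 30 cryopreserved against 30 fresh libraries, 0 of 200 members had an adjusted p under 0.05, beside 0% of 32336 genes, and 0 had an unadjusted p under 0.05, beside 2.21% of all genes. DESeq2 and limma voom also called 0 members. At an unadjusted p under 0.05 DESeq2 had 4 members, beside 2.36% of all genes, and limma voom had 0, beside 2.58%. The log2 difference, cryopreserved minus fresh, had a median of -0.09 in members and ran from -0.62 to 1.00, with a median standard error of 0.50. The sign of the median was not stable, at 0.03 with DESeq2-type size factors, -0.28 with the male as a block and -0.33 without males 1 to 4. The median of -0.09 was smaller in size than the median standard error of its fit, which leaves out the pairing by male. With the male as a block the median standard error was 0.45. There 97.5% of members were fitted lower after cryopreservation, beside 93.0% of the 100 most abundant genes and 45.9% of all genes. Because the members were picked by a ratio of fresh levels, the direction of a difference between treatments is not independent of the rule.

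Male by male, the share of counts in the set was lower after cryopreservation in 19 males and higher in 11. The median difference was -0.45 percentage points and the mean -0.149 ± 2.78 (SD, n = 30 males). In 23 males both libraries were within 2 points of each other. In 3 males the share was more than 4 points higher (males 1, 2 and 3), and in 2 males more than 4 points lower (males 4 and 28). Male 41 came next, with 4.84% in fresh and 0.992% in cryopreserved sperm. Without males 1 to 4 the median difference was -0.50 points and the mean -0.644 ± 1.58 (SD, n = 26 males), with a lower share in 18 males and a higher one in 8.

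The member with the highest ratio, AUIFUG00000010371, was also among the least steady. It had 17.6 to 329 CPM in the 11 concentrated fresh libraries (median 109.7) and 1.22 to 13.2 CPM in the 11 even ones (median 4.56). In cryopreserved sperm it had 14.4 to 434 CPM in the 12 concentrated libraries (median 264), 92.2 to 581 CPM in the 5 between and 0.789 to 105 CPM in the 13 even ones (median 9.59). The fresh classes did not overlap and the cryopreserved ones did. Its cryopreserved level was above the fresh one in 19 of 30 males, with a mean of 77.4 ± 90.6 CPM before and 158 ± 174 CPM after cryopreservation (SD, n = 30 males). The log2 difference of 1.00 with a standard error of 0.62 did not pass the test (edgeR adjusted p = 1.00). Its slope on the fresh profile was -0.53 with a standard error of 0.41 (edgeR adjusted p = 0.270), and -1.98 without males 1 to 4 (edgeR adjusted p = 0.000878), with adjusted p from 0.000878 to 0.383 over 11 settings.

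Its level differed widely between both libraries of some males, with 1 library per male and treatment and no test of that difference. In fresh sperm AUIFUG00000010371 had 329 CPM in male 34, 249 CPM in male 36 and 163 CPM in male 35. After cryopreservation the same males had 25.4, 14.4 and 19.1 CPM, although the members as a whole took 6.06%, 5.19% and 4.68% of the counts there. The turn was opposite in males 5, 11 and 16, with 41.0, 65.0 and 17.6 CPM in fresh and 337, 297 and 311 CPM in cryopreserved sperm. The members ranked 2, 7 and 9 went with it. Relative to the set, and over 13 males with at least 4% of the counts in the set in both libraries, their pairwise r with the first-ranked member was 0.95 to 0.98 in fresh and in cryopreserved sperm. The member ranked 7 had 107 and 116 CPM in the fresh libraries of males 34 and 36, and 16.4 and 13.3 CPM in the cryopreserved ones. What sets these 4 members apart was not tested.

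Ranks 7 and 9 may hold the same reads. Their counts differed by a median of 0.157% over 60 libraries and were equal in 21 of them, and those of ranks 85 and 86 differed by a median of 0.564%. Whether these pairs overlap in the genome or are near-identical copies was not tested, and each pair is best counted as 1 observation. No other pair of members differed by 5% or less in the median.

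**Figure D3:**
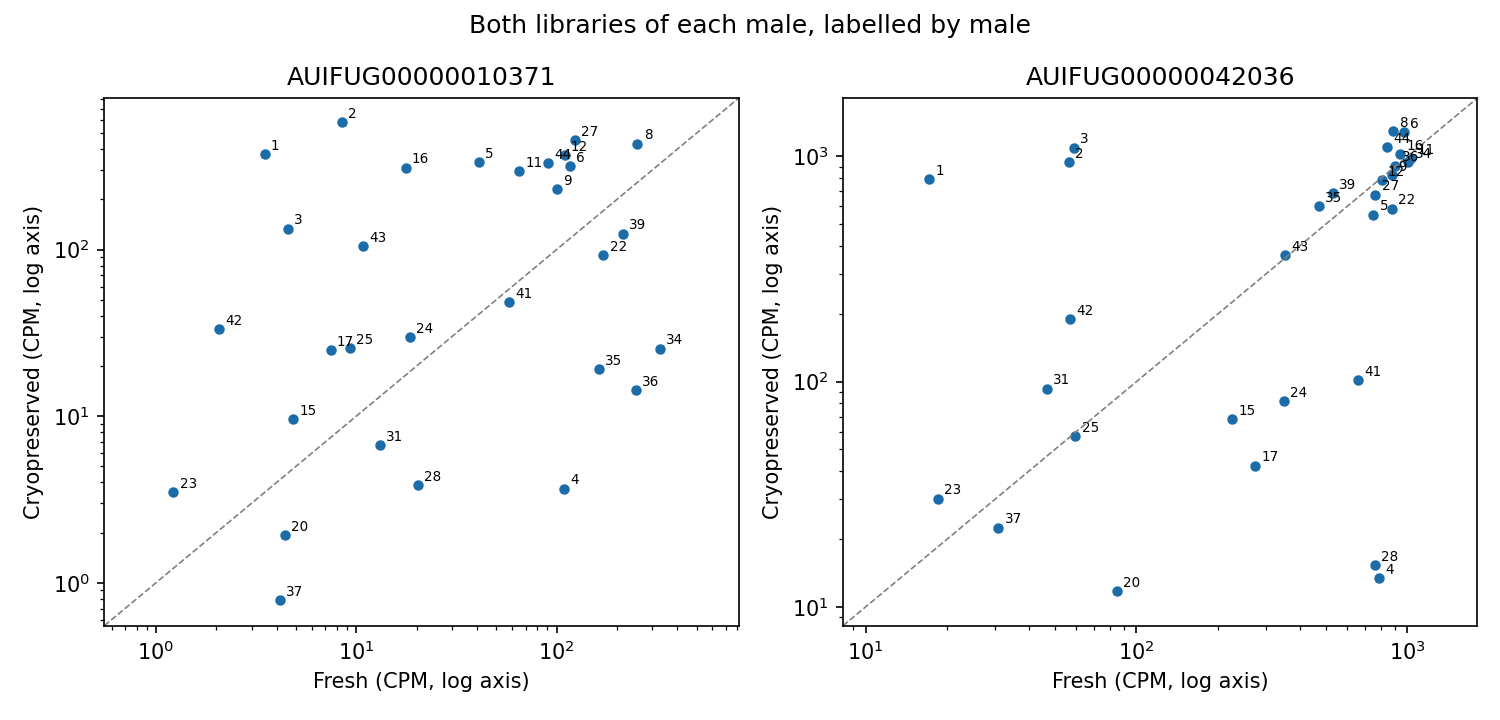
Fresh (horizontal) and cryopreserved level (vertical) of 2 members in each of 30 males, in CPM on log axes, with points labelled by male and a dashed line of equality. AUIFUG00000010371 scatters widely on both sides of the line, with males 34, 35 and 36 below it and males 5, 11 and 16 above it, while AUIFUG00000042036 has concentrated fresh libraries between 749 and 1033 CPM and males 1, 2, 3, 4 and 28 far from the line.

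The member with the highest mean in cryopreserved sperm, AUIFUG00000042036, ranked 32, followed the profile of the library closely. It had 749 to 1033 CPM in the 11 concentrated fresh libraries (median 882) and 17.2 to 274 CPM in the 11 even ones (median 56.7). In cryopreserved sperm it had 602 to 1297 CPM in the 12 concentrated libraries (median 928), 552 to 1021 CPM in the 5 between and 11.8 to 364 CPM in the 13 even ones (median 57.3). Concentrated and even libraries did not overlap in either treatment. Its mean of 516 ± 375 CPM before and 539 ± 444 CPM after cryopreservation (SD, n = 30 males) differed by 0.05 on the log2 scale with a standard error of 0.54 (edgeR adjusted p = 1.00). The sign turned with the male as a block (-0.24) and without males 1 to 4 (-0.17). It was higher after cryopreservation in 14 of 30 males. The slope on the fresh profile was -0.66 with a standard error of 0.36 (edgeR adjusted p = 0.117), and -1.60 without males 1 to 4 (edgeR adjusted p = 0.000814), with adjusted p from 0.000772 to 0.314 over 11 settings.

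Most members kept a steady share of the set from male to male. Over the 13 males with at least 4% of counts in the set in both libraries, the level of a member relative to the set had an SD across males, on the log2 scale, whose median was 0.29 for fresh and 0.31 for cryopreserved libraries. The SD was under 0.5 in both treatments for 162 of 200 members and 1 or more in both for 7. Besides ranks 1, 2, 7 and 9, these 7 were ranks 4, 142 and 180, chosen after their values were seen.

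The member ranked 180 was low in male 11 in both treatments. It had 7.14 CPM in the fresh and 20.5 CPM in the cryopreserved library of male 11. These libraries held 6.51% and 5.82% of their counts in the set. In the other 10 concentrated fresh libraries it had 215 to 730 CPM. In male 9 it had 215 and 200 CPM and in male 6, at the upper end, 730 and 679 CPM, so that male 9 was lower than male 6 in both treatments.

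The members ranked 4 and 142 were another pair that moved together, and male 16 stood out in the second. Relative to the set their r over 13 males was 0.71 in fresh and 0.87 in cryopreserved sperm. The member ranked 142 had 989 CPM in the fresh and 706 CPM in the cryopreserved library of male 16, the highest of all 30 males in each treatment. In male 22, a concentrated fresh library as well, it had 44.7 and 45.8 CPM. In male 5 it had 37.2 and 36.0 CPM. Males 16 and 22 thus differed by more than 10-fold in this gene while holding 7.06% and 7.38% of their fresh counts in the set. The rule used the fresh level of male 16, so the place of this gene in the set rests partly on that library. The member ranked 96 also had its highest level in male 16 in both treatments. Its SD relative to the set was 1.06 in fresh and 0.87 in cryopreserved libraries, so it missed the limit of 1 in the latter.

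Profiles within the set went with the male in most, but not all, males. For each library of the 13 males, log2(CPM + 1) was centred over the 200 members, and the mean of each member over the males of that treatment was taken off. Over the 200 members, the fresh and cryopreserved library of a male then had a Pearson r with a median of 0.53 and a range from -0.33 to 0.73, beside a median of -0.05 and a range from -0.60 to 0.60 in the 156 pairs of different males. Taking off these means ties the pairs to each other, so a positive own value lowers those with other males. The median of -0.05 thus follows in part from the centring. In 8 of the 13 males the fresh library was closest to the cryopreserved library of its own male. This held for 5 of the 6 males with at least 5000000 counts in both libraries and for 3 of the other 7. In the remaining deep male, male 16, r was 0.29, and it was 0.45 with the cryopreserved library of male 36.

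Males 34, 36 and 39 went against this, with r of -0.33, -0.10 and -0.32 between their own libraries. Their fresh libraries were closest to the cryopreserved library of male 12, at 0.43, 0.43 and 0.50. Their libraries held 929243 to 2751295 counts, among the lowest of the series. Male 9, with 2620325 and 2610086 counts, had an r of 0.73 between its own libraries. In males 34 and 36, members ranked 1, 2, 7 and 9 were above their mean in fresh and far below it in cryopreserved sperm. On the centred log2 scale male 34 had 0.81 to 1.43 in fresh and -2.78 to -2.42 in cryopreserved sperm. Male 36 had 0.96 to 1.08 and -3.30 to -2.42, and male 39 had 1.31 to 1.56 and -0.51 to -0.31. Such opposite values pull r down, and r without these members was not tested. The part that depth, or the males' labels, play in these r values was not tested. Libraries of 1 male share the animal, and the 200 members are not independent, so these values are a description.

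**Figure D4:**
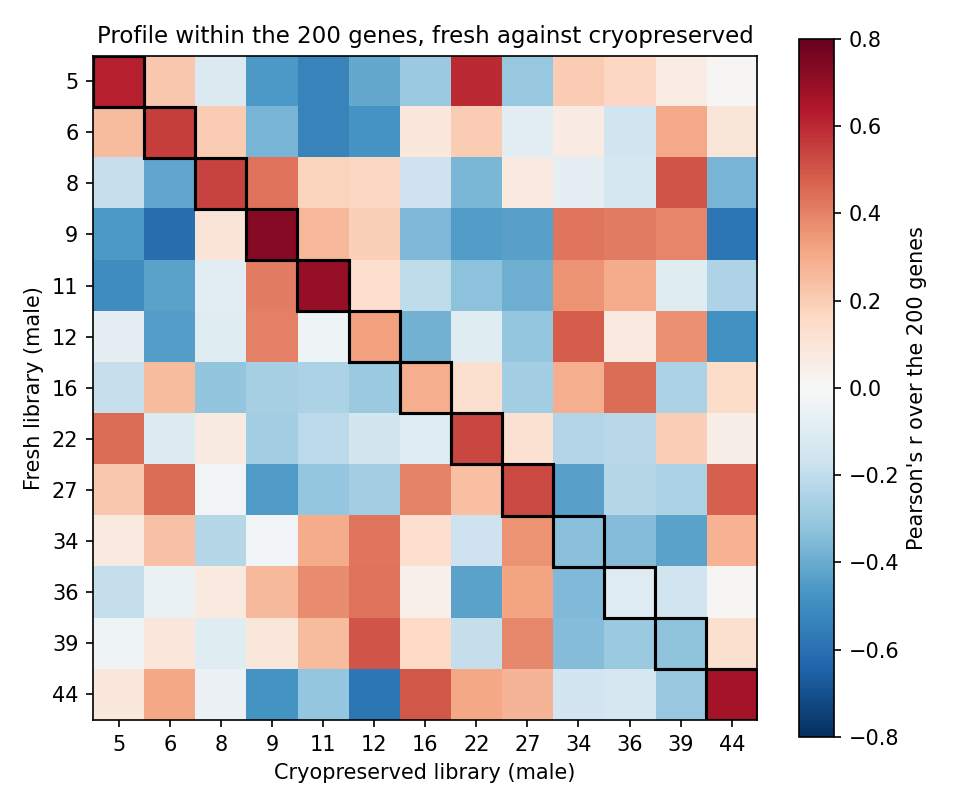
Pearson's r over the 200 genes between the profile within the set of each fresh library (rows) and each cryopreserved library (columns), for 13 males with at least 4% of the counts in the set in both libraries. Boxes on the diagonal mark both libraries of the same male, which reach 0.73 in male 9 and are below 0 in males 34, 36 and 39.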

How the data were processed

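RNA-seq libraries of 30 fresh and 30 cryopreserved sperm samples were used. The deposited tables, 1 per treatment, hold unnormalized read counts of each gene, and 0 count columns were left unused. Per the submitters' processing notes, FastQC 0.11.6, Trimmomatic 0.39, TopHat2 2.1.1 and bedtools were used, with no role or order given. The build, the annotation and the counting rule, strand included, were not given in the sources used here. The fresh column of male 43 ends in another number than its label and was assigned by male and treatment. No pair of libraries had identical counts (0 pairs).

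CPM were counts over the column total. The members and all lists were chosen with earlier results of these data known. Both tests used edgeR 4.0.16 in R 4.3.3 (filterByExpr, TMM, quasi-likelihood test, Benjamini-Hochberg adjustment over all genes tested), and DESeq2 1.42.0 and limma 3.58.1 (voom) were alternatives. The standard error was the log2 value over the square root of F. In the first fit, the cryopreserved libraries were set against the centred log2 median CPM of the male's fresh library. In the second, treatment was the only term, over all 60 libraries. Male numbers pair the libraries because both come from the same animal, per the labels. The fits were tested on simulated counts with known changes, and recovery of the smaller changes was partial. With no symbols at hand, the identifiers printed are the member with the highest ratio and the member with the highest cryopreserved mean. No member's slope went against the rule, which would have named more. Marker lists needed symbols and were not run.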

Additional observations from a re-analysis of the deposited data

How the results depend on the processing

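Leaving out males 1 to 4, alone, with depth as a further term or with classes from the fresh library, was an alternative chosen after seeing the data. The rest were listed with earlier results of these data known. Of the 200 members, 183 to 195 were chosen again when each of the 11 concentrated fresh libraries was left out in turn, and 142 to 189 under 6 other settings of the rule (lowest with a pseudocount of 10). The 5 members called against the fresh profile became 95 with DESeq2-type size factors, 85 with library totals only, 155 with DESeq2, 199 with limma voom, 0 with depth as a further term, 1 with 2 classes of males, 34 without male 4, 23 without males 35 and 39, and 200 without males 1 to 4, with or without depth as a further term. The cause was not tested. All 200 slopes, which are not independent of each other, stayed negative in these 11 alternatives, with medians from -1.50 to -0.49. So did the slopes of 97.0% to 99.0% of the 100 most abundant genes. The count of 0 members called between treatments was met in 9 of 9 alternatives, and with the male as a replicate block it was 0 as well, so the block changed no call. The number of members fitted lower after cryopreservation ran from 83 to 195. For AUIFUG00000042036 the difference between treatments turned to -0.24 with the male as a replicate block and to -0.17 without males 1 to 4, in both cases short of the threshold. The median log2 ratio between cryopreserved classes, 3.06, was 3.55 with limits of 4 and 13 CPM, 4.40 with TMM-scaled CPM and 1.27 with classes taken from the fresh library (3.27 for these without males 1 to 4), and the cause was not tested. Depth limits the shallow libraries, most of them concentrated after cryopreservation, where depth and profile cannot be told apart for single genes.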
